A study of Mus musculus with 2 samples.

Results

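Voltage-gated sodium channels are described here by the 8 genes of their alpha subunits that were looked up by symbol among the 32286 features of the count matrix, Scn1a, Scn2a, Scn3a, Scn7a, Scn8a, Scn9a, Scn10a and Scn11a. All 8 were found, each as a single row. They were measured in single nuclei of the vagus nerve ganglia of mice, the paired swellings in which sensory neurons of the vagus sit among glia, connective tissue and vessels. The female group was 1 library from 14 ganglia of 7 mice and the male group 1 library from 16 ganglia of 8 mice. All animals of both groups were C57BL/6J mice that carried Rosa26-floxed-STOP-Cas9-eGFP, were 8 to 9 weeks old when bought, were kept on standard chow and had AAVrg-Cre, a retrograde virus that carries Cre, injected into the liver 4 weeks before the ganglia were taken. Whole ganglia were used and nuclei were not sorted for eGFP, so the nuclei are not limited to neurons that reach the liver, and no group without the virus was analysed here.

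A voltage-gated sodium channel opens when the membrane is depolarised and carries the inward current of the action potential, and its pore is formed by a single alpha subunit of 4 homologous domains. In sensory ganglia the family is known for a division of labour. Scn9a (Nav1.7) amplifies small depolarisations near threshold, Scn10a (Nav1.8) carries much of the action potential of nociceptors, and Scn11a (Nav1.9) gives a persistent current near rest. Scn1a (Nav1.1) and Scn8a (Nav1.6) are best known from myelinated, fast firing fibres and nodes of Ranvier, Scn2a (Nav1.2) from unmyelinated axons of the brain and Scn3a (Nav1.3) from the embryo and injured nerve. Scn7a (Nax) is the odd member, a sodium-sensing channel known in glia and sensory neurons that is not opened by voltage as the others are.

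The members differ in a short stretch of coding sequence that sets their response to tetrodotoxin, and since these responses divide the results below, that stretch is shown for 7 of them. The windows are 45 bases of the domain I pore loop, read from mm10 on the coding strand. All of them lie in exon 9 of the transcript used for their gene. Capitals mark the codon that follows the aspartate of the selectivity filter. An aromatic residue at this place goes with block by low tetrodotoxin, and the serine of Scn10a and Scn11a is known to make these channels resistant.
Scn2a chr2:65688415-65688459 (plus strand): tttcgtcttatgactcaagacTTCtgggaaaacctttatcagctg
Scn3a chr2:65521792-65521836 (minus strand): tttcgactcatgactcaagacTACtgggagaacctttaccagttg
Scn7a chr2:66726154-66726198 (minus strand): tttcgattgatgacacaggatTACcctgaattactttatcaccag
Scn8a chr15:100971617-100971661 (plus strand): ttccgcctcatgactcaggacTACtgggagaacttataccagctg
Scn9a chr2:66548980-66549024 (minus strand): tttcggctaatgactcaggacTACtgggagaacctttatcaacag
Scn10a chr9:119666366-119666410 (minus strand): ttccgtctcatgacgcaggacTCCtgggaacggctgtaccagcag
Scn11a chr9:119805659-119805703 (minus strand): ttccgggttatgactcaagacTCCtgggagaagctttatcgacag

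The marked codon was TTC in Scn2a, TAC in Scn3a, Scn7a, Scn8a and Scn9a, and TCC in Scn10a and Scn11a. Scn7a had the pore window least like the others, with 60% of bases identical to Scn8a at the least and 71.1% identical to Scn9a at the most. The windows of Scn10a and Scn11a were 73.3% identical to each other, although the genes are neighbours on chromosome 9.

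In mm10, 5 members lie in a cluster on chromosome 2, Scn3a at 65457118 to 65567627, Scn2a at 65620771 to 65767447, Scn1a at 66270778 to 66440840, Scn9a at 66480080 to 66634962 and Scn7a at 66673425 to 66784914. Scn10a spans 119608456 to 119719322 and Scn11a 119753759 to 119825456 on chromosome 9, and Scn8a spans 100869858 to 101045938 on chromosome 15. The genes span 71.7 kb (Scn11a) to 176 kb (Scn8a). Since reads of introns were counted, a longer gene may give more reads, so genes are ranked against each other per 100 kb of gene span. How far reads rise with span was not tested. Shares of the member UMIs are not corrected for span and are used to compare classes and clusters, not genes. The level of 1 gene across nuclei is given as UMIs per 10000 UMIs, a UMI standing for a captured RNA molecule.

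The female library held 3791 nuclei and 17435300 UMIs and the male library 4923 nuclei and 27529730 UMIs, with a median of 2381 and 2658 UMIs per nucleus. The 8 members took 27268 UMIs of the female and 48685 UMIs of the male library, 15.6 and 17.7 per 10000. With 1 library per sex no test was possible, sex cannot be told apart from library, and every interval given is a 95% interval of counting error alone (exact Poisson for levels, Clopper-Pearson for shares). Nuclei were clustered without the members, and clusters are called by the class whose markers they held and by a leading gene. There were 2281 neuron-like nuclei (672 female, 1609 male) in 10 clusters and 15 other clusters. Among the 10, the unnamed cluster led by Cdh19 was led by a marker of ganglion glia. The unnamed cluster led by Prl was shallow, with a median of 1838 UMIs. Both are counted as neuron-like below, and the part of glia or free RNA in them was not tested. Many clusters came mostly from 1 library, among them the sympathetic neuron-like cluster (5 female and 122 male nuclei) and the cerebellar granule cell-like cluster (372 female and 23 male), which is a cell type from outside the ganglion. Only 8 barcode sequences occurred in both libraries.

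Free RNA puts UMIs of a gene into nuclei that do not express it, so a background was measured. The 273 macrophage-like nuclei served as this background, though any expression of their own was not told apart from free RNA. They held 6.74 UMIs of the members per 10000 (4.41 for the female library and 8.95 for the male one). They also held the 14 neuron markers at 51.3 per 10000 against 89.0 in neuron-like nuclei. Their median depth was 1797 UMIs against 7212 in neuron-like nuclei. A level whose interval overlapped that of the macrophage-like nuclei was read as background. By this measure Scn2a, Scn8a and Scn9a lay above background in 10 of 10 neuron-like clusters, Scn10a in 9, Scn3a, Scn7a and Scn11a in 7, and Scn1a in 6. Outside the neuron-like nuclei Scn7a was above background in 5 of 15 clusters, Scn1a, Scn2a and Scn8a in 2, Scn3a, Scn9a and Scn10a in 1, and Scn11a in 0. These counts use the background over both libraries, which was higher in the male one, and so depend on the make-up of a cluster. For Scn9a and Scn10a the cluster was the satellite glia-like one led by Ednrb, with 60 female and 578 male nuclei.

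Neuron-like nuclei held the 8 members at 22.6 UMIs per 10000 (22.4 to 22.8), 24.2 for the female library and 21.9 for the male one. Among the neuron-like clusters the sum was highest in the jugular-like cluster led by Grik1 at 34.7 (34.0 to 35.5), next in the jugular-like cluster led by Cdh9 at 29.5 (28.6 to 30.4) and in the unnamed cluster led by Tafa1 at 28.4 (27.8 to 28.9). The last 2 intervals overlap. It was lowest in the sympathetic neuron-like cluster at 14.1 (13.6 to 14.6). The 3 nodose-like clusters lay close together at 19.1 to 20.7, so the sum set them apart little while their members did.

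Per 100 kb of gene, the members of neuron-like nuclei ranked Scn10a at 4.72, Scn9a at 4.29, Scn7a at 3.31, Scn11a at 2.54, Scn2a at 1.06, Scn8a at 1.01, Scn3a at 0.824 and Scn1a at 0.565. The 3 peripheral channels Scn9a, Scn10a and Scn11a and the atypical Scn7a thus stood above the 4 members shared with the brain. In nuclei of the Grik1 cluster Scn10a reached 14.6 and Scn11a 10.3 per 100 kb, more than Scn9a at 4.70. In the sympathetic neuron-like cluster Scn3a stood highest at 2.55, next to Scn9a at 2.41.

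**Figure D1:**
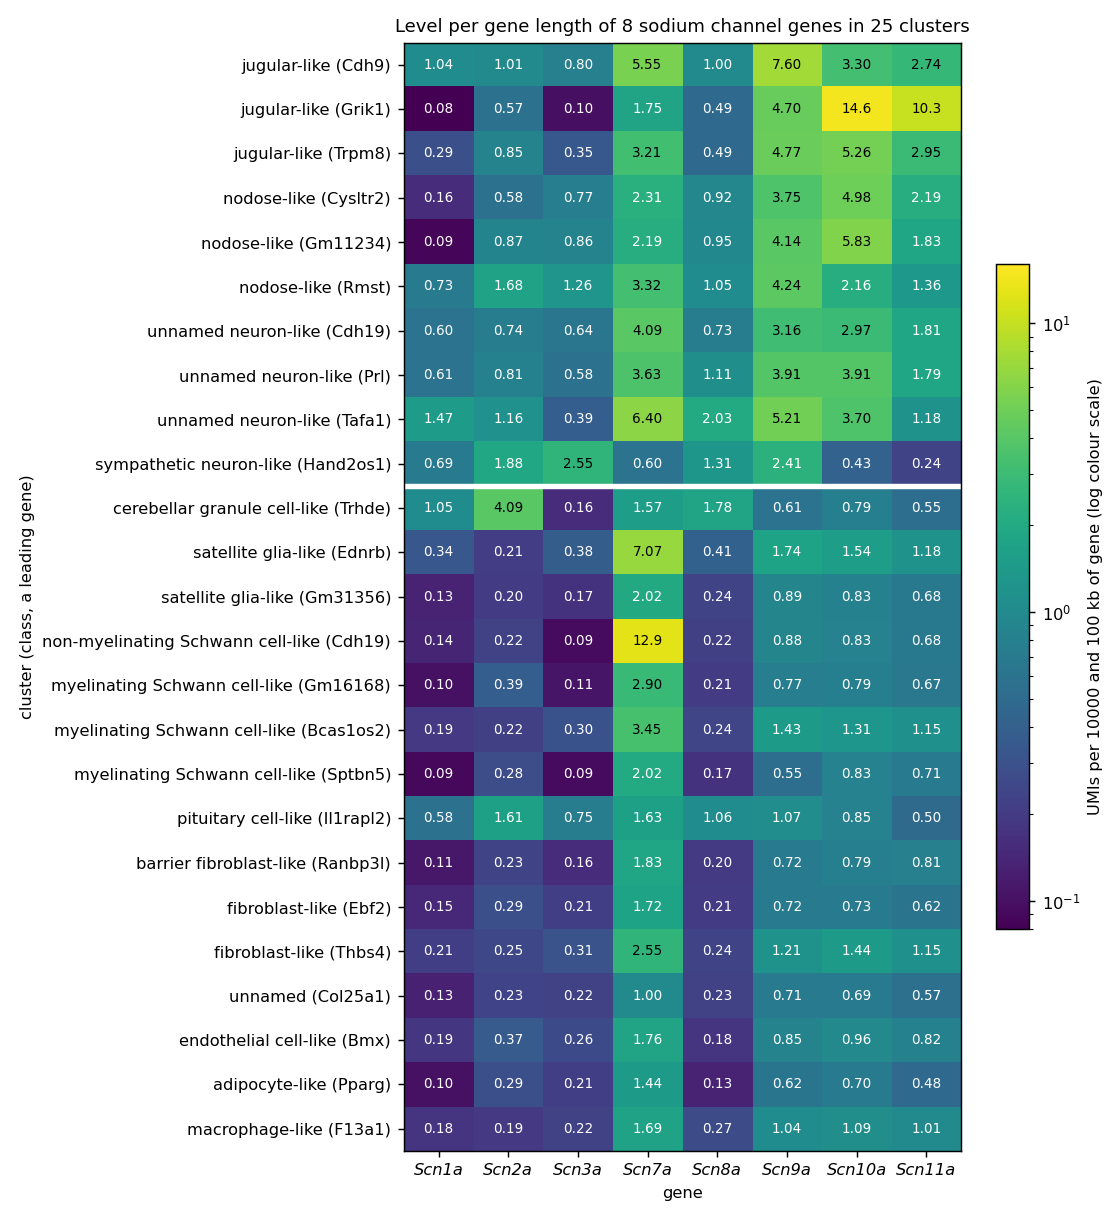
Colour and number give the level of each member (columns) in each of the 25 clusters (rows) as UMIs per 10000 and 100 kb of gene, both libraries summed, on a log colour scale, with the neuron-like clusters above the white line. Scn10a reaches 14.6 in the Grik1 jugular-like cluster, and Scn7a reaches 12.9 in the non-myelinating Schwann cell-like cluster.

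Scn9a was the most widely shared member of the neurons. It was found in 81.8% of neuron-like nuclei (80.2 to 83.4%), against 25.3% of macrophage-like nuclei, at median depths of 7212 and 1797 UMIs, and thinned to 1000 UMIs per nucleus the shares were 41.4% and 12.5%. Its level in neuron-like nuclei was 6.65 UMIs per 10000, 7.16 for the female library and 6.43 for the male one. The highest and lowest neuron-like clusters differed 3.16-fold, the smallest spread of the 8 members. The order began with the Cdh9 jugular-like cluster at 11.8 (11.5 female, 11.9 male), the Tafa1 cluster at 8.06 (8.76 female, 7.61 male), and the jugular-like clusters led by Trpm8 at 7.39 and Grik1 at 7.28, which overlap. The nodose-like clusters led by Rmst at 6.56 and Gm11234 at 6.41 overlap too, as does each of the next neighbours down to the nodose-like cluster led by Cysltr2 at 5.81. The unnamed cluster led by Cdh19 at 4.89 and the sympathetic neuron-like cluster at 3.73 were lowest, each apart from its neighbours. The antisense gene Gm13629, which crosses Scn9a on the opposite strand, was counted apart from it. Gm13629 ran from 1.2 to 3.89 per 10000 in the neuron-like clusters, highest in the Cdh9 cluster where Scn9a was highest, and was 0.124 in macrophage-like nuclei.

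Scn10a and Scn11a, the pair of tetrodotoxin-resistant channels, varied most. In the Grik1 jugular-like cluster Scn10a was at 16.2 UMIs per 10000 (17.6 female, 15.4 male) and Scn11a at 7.38 (7.60 female, 7.27 male). Every other cluster lay lower for both genes. Scn10a followed at 6.47 in the Gm11234 nodose-like cluster (7.11 female, 6.18 male), at 5.84 in the Trpm8 jugular-like cluster and at 5.52 in the Cysltr2 nodose-like cluster, of which the last 2 overlap. It was 3.66 in the Cdh9 jugular-like cluster, 2.40 in the Rmst nodose-like cluster and 0.472 (0.380 to 0.579) in the sympathetic neuron-like cluster, under the 1.21 of macrophage-like nuclei. The highest cluster of Scn10a stood 34.3-fold over the lowest. Scn11a followed at 2.11 in the Trpm8 and 1.97 in the Cdh9 jugular-like cluster, which overlap, and all other neuron-like clusters lay at 1.57 or less. Its range among neuron-like clusters was 43.6-fold, down to 0.169 in the sympathetic neuron-like cluster. The Grik1 cluster also held Mrgprd, the receptor that marks a class of unmyelinated nociceptors, at 1.09 per 10000, while the other neuron-like clusters held it at 0.0127 to 0.0781.

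**Figure D2:**
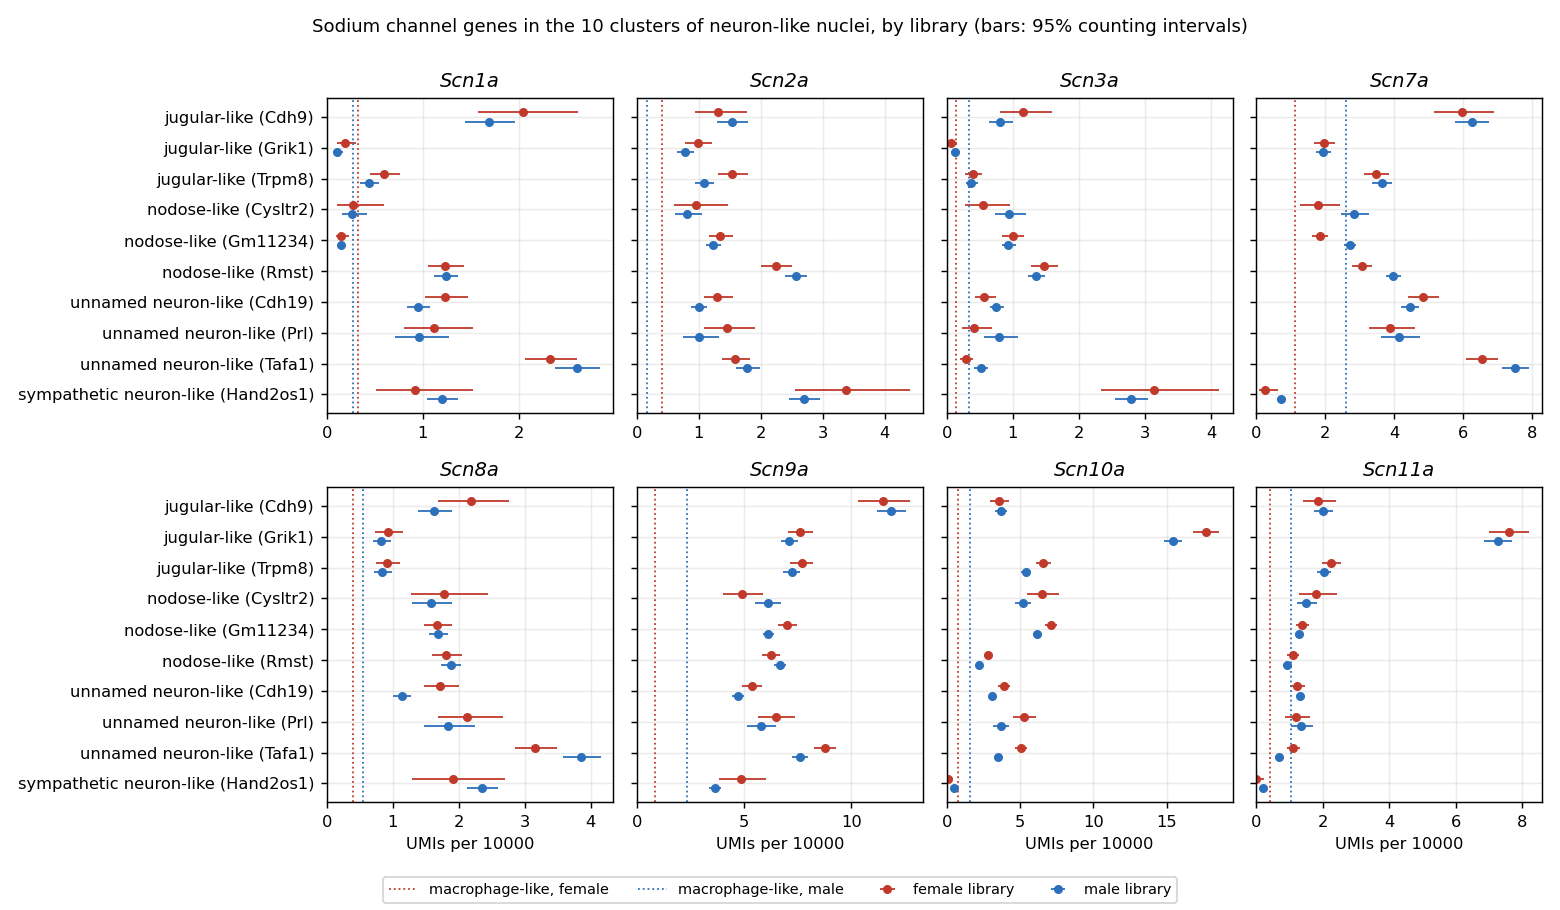
Each panel shows the level of 1 member in UMIs per 10000 (x axis, linear from 0) in the 10 neuron-like clusters (y axis), with a point and 95% counting interval for the female (red) and the male (blue) library and a dotted line at the macrophage-like level of each library. The Grik1 jugular-like cluster lies at 17.6 and 15.4 for Scn10a, and both libraries place it far to the right of every other cluster.

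Jugular and nodose neurons are the sensory neurons of the 2 fused ganglia of the vagus, the first derived from neural crest and the second from placode. Of the 8 members, jugular-like nuclei (448) held 2 at a level at least 2-fold higher than nodose-like nuclei (896), Scn10a and Scn11a, where 7.6% of 16174 genes were that much higher, and 1 at least 2-fold lower, Scn3a, where 10.1% were. The median log2 ratio was 0.05 over the members and -0.04 over all genes. Scn10a was at 9.37 in jugular-like (10.4 female, 8.84 male) and 4.55 in nodose-like nuclei (5.10 female, 4.32 male), a log2 ratio of 1.04 (0.99 to 1.10), and the lower end of the interval is just under 2-fold. Scn11a was at 4.10 (4.26 female, 4.02 male) and 1.18 (1.28 female, 1.14 male), a log2 ratio of 1.79 (1.69 to 1.89). Both ratios came out alike in the libraries taken alone, 1.03 and 1.03 for Scn10a and 1.74 and 1.81 for Scn11a. Scn3a, known from immature and injured neurons, was lower at 0.376 against 1.14, a log2 ratio of -1.60 (-1.80 to -1.40). Scn2a (-0.64) and Scn8a (-0.76) were lower by less than 2-fold, Scn9a (0.35) and Scn7a (0.20) slightly higher, and for Scn1a (-0.10) the interval of -0.28 to 0.08 holds 0.

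The share of the pair in all member UMIs was 47.6% in jugular-like (46.9 to 48.3%) and 28.0% in nodose-like nuclei (27.4 to 28.6%), 1.70-fold higher. It was 67.8% in the Grik1 cluster and 19.1% in the Cdh9 cluster, which is also jugular-like. The class value is thus a mixture of unlike clusters. Among nodose-like clusters the share was 37.6% and 37.2% in those led by Gm11234 and Cysltr2 and 16.4% in that led by Rmst. In the sympathetic neuron-like cluster it was 4.55% (3.80 to 5.39%), and in macrophage-like nuclei 28.7%, near that of all nuclei (28.5%).

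**Figure D3:**
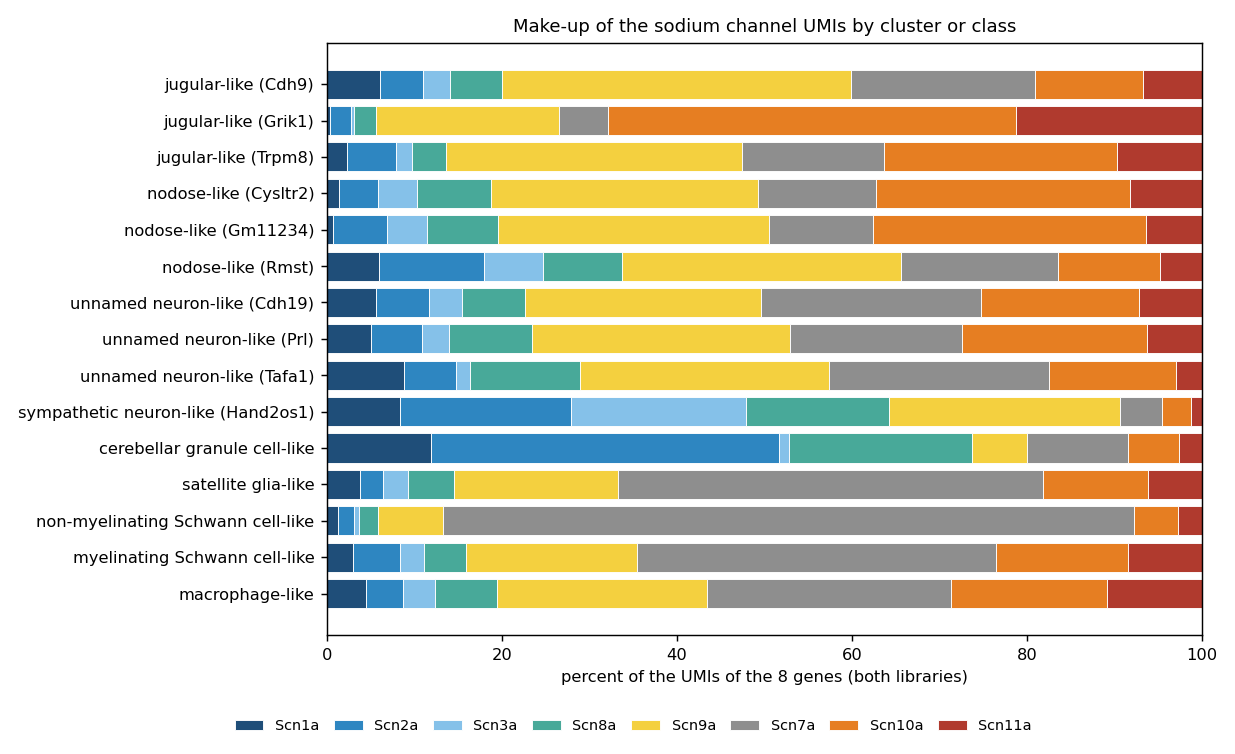
Each bar divides the UMIs of the 8 members, both libraries summed, into the share of each gene in percent (x axis) for the 10 neuron-like clusters and 5 other classes (y axis). Scn10a and Scn11a take 67.8% in the Grik1 cluster and 4.55% in the sympathetic neuron-like cluster, and Scn7a takes 79.0% in non-myelinating Schwann cell-like nuclei.

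The Grik1 cluster was set against the other jugular-like nuclei after its values were seen, as a description. It held 2 of 8 members at least 2-fold higher, where 5.03% of 13516 genes were, and 3 at least 2-fold lower, where 14% were. Scn10a was 3.14-fold higher (16.2 against 5.15) and Scn11a 3.57-fold higher (7.38 against 2.07). Scn1a was 6.72-fold lower (0.134 against 0.898), Scn3a 4.92-fold lower and Scn7a 2.25-fold lower. In this cluster Scn1a, Scn3a and Scn7a lay at or under the macrophage-like level, so what remained above background were Scn9a, Scn10a, Scn11a, Scn2a and Scn8a. The 5 members past 2-fold kept their direction in both libraries, for instance Scn1a with log2 ratios of -2.30 for the female library and -3.05 for the male one.

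Scn1a and Scn8a, the channels of fast fibres, peaked elsewhere. The unnamed neuron-like cluster led by Tafa1 held Scn1a at 2.5 UMIs per 10000 (2.33 female, 2.61 male) and Scn8a at 3.58 (3.15 female, 3.86 male). For both genes this was the highest neuron-like cluster, and in each library its interval lay above that of the nodose-like class. Scn1a came next in the Cdh9 jugular-like cluster at 1.77 and in the Rmst nodose-like cluster at 1.24, and the following neighbours overlap down to the Cdh19 cluster at 1.03. By the macrophage-like measure it was at background in the Trpm8 cluster at 0.493 (0.414 to 0.582) and in the Cysltr2 nodose-like cluster at 0.267. Lowest were the Gm11234 nodose-like cluster at 0.147 (0.114 to 0.186) and the Grik1 cluster at 0.134 (0.0926 to 0.187), which overlap. The interval of the Trpm8 cluster lay above both of these, so Scn1a is not shown to be absent there. Scn8a came next in the sympathetic neuron-like cluster at 2.31, 6 further clusters followed at 1.29 to 1.96, and the Trpm8 and Grik1 clusters were lowest at 0.867 and 0.857. The Tafa1 cluster held Piezo2, the channel of touch and stretch receptors, at 16.1 per 10000 and Nefh, a neurofilament of large fibres, at 2.08, its highest level among neuron-like clusters. The Cdh9 cluster held Piezo2 at 25.7 and Nefh at 0.949. Macrophage-like nuclei held Piezo2 at 1.12 and Nefh at 1.08, and the satellite glia-like cluster led by Ednrb held Nefh at 1.70. Nefh thus stood little above background in the Tafa1 cluster and not above it in the Cdh9 cluster.

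Against nodose-like nuclei, again chosen after the values were seen, the Tafa1 cluster held 3 of 8 members at least 2-fold higher, where 7.92% of 15628 genes were, and 1 at least 2-fold lower, where 11.6% were. The 3 were Scn1a at a log2 ratio of 1.95 (1.80 to 2.10), Scn7a at 1.24 (1.16 to 1.32) and Scn8a at 1.03 (0.92 to 1.14). The lower was Scn3a at -1.42 (-1.69 to -1.16). Taken alone, the female library gave 1.84, 1.45, 0.86 and -2.03 for these genes and the male library 2.01, 1.19, 1.13 and -1.12. Scn8a was under 2-fold in the female library.

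Scn2a and Scn3a were highest in other neurons. Scn3a stood at 2.82 UMIs per 10000 in the sympathetic neuron-like cluster (2.59 to 3.07), which also held the noradrenaline transporter gene Slc6a2 at 15.2 and 122 of whose 127 nuclei were male. The Rmst nodose-like cluster followed at 1.39, and the nodose-like clusters led by Gm11234 and Cysltr2 lay at 0.955 and 0.845, with the Cdh9 cluster at 0.887 between them and all neighbours overlapping. The jugular-like clusters led by Trpm8 and Grik1 held 0.382 and 0.110, at or under the 0.248 of macrophage-like nuclei within counting error. Scn2a was 2.75 in the sympathetic neuron-like cluster and 2.46 in the Rmst cluster, which overlap, and ran down to 0.842 in the Grik1 cluster. Its neuron-like clusters differed 3.27-fold.

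Sympathetic neuron-like nuclei held 1 of 8 members at least 2-fold higher than nodose-like nuclei, Scn3a at a log2 ratio of 1.31 (1.16 to 1.45), where 6.99% of 15377 genes were that much higher. They held 3 at least 2-fold lower, where 13.8% were, namely Scn10a at -3.27 (-3.58 to -2.97), Scn11a at -2.81 (-3.35 to -2.31) and Scn7a at -2.17 (-2.43 to -1.92). All 3 were under the macrophage-like level here. These values rest on the male library, since the female library held 5 of these nuclei.

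Scn7a, the sodium sensor, was the member of the glia. The non-myelinating Schwann cell-like cluster held it at 14.4 UMIs per 10000 (13.5 to 15.3), 15.7 in the 273 female and 9.82 in the 52 male nuclei, and the gene made up 79.0% of all member UMIs there, against 16.3% in neuron-like nuclei. It was found in 72.9% of these nuclei (67.7 to 77.7%), against 29.3% of macrophage-like nuclei, at median depths of 1631 and 1797 UMIs. After thinning each nucleus to 1000 UMIs the shares were 60.4% and 14.7%. The satellite glia-like cluster led by Ednrb came next at 7.88 (7.93 female, 7.88 male). Of the 15 clusters outside the neurons, the others above background were the myelinating Schwann cell-like clusters led by Bcas1os2 at 3.85 and by Gm16168 at 3.23 and the fibroblast-like cluster led by Thbs4 at 2.85. The Thbs4 cluster came mostly from the male library (560 of 580 nuclei), and in that library alone its 2.82 (2.51 to 3.15) overlapped the 2.59 (2.04 to 3.25) of macrophage-like nuclei. The Gm16168 cluster differed between libraries, with 2.37 in 288 female and 9.4 in 21 male nuclei. The other satellite glia-like cluster, led by Gm31356, was at 2.25 (2.01 to 2.5), not above background over both libraries, although in the female library alone it was at 2.63 (2.28 to 3.01) against 1.13 (0.768 to 1.60) in macrophage-like nuclei. The neuron markers moved with these levels, at 78.1 per 10000 in the Ednrb and 40.4 in the Gm31356 cluster, and their part in the Ednrb level was not tested. In the non-myelinating cluster they were at 41.6, under the 51.3 of macrophage-like nuclei.

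**Figure D4:**
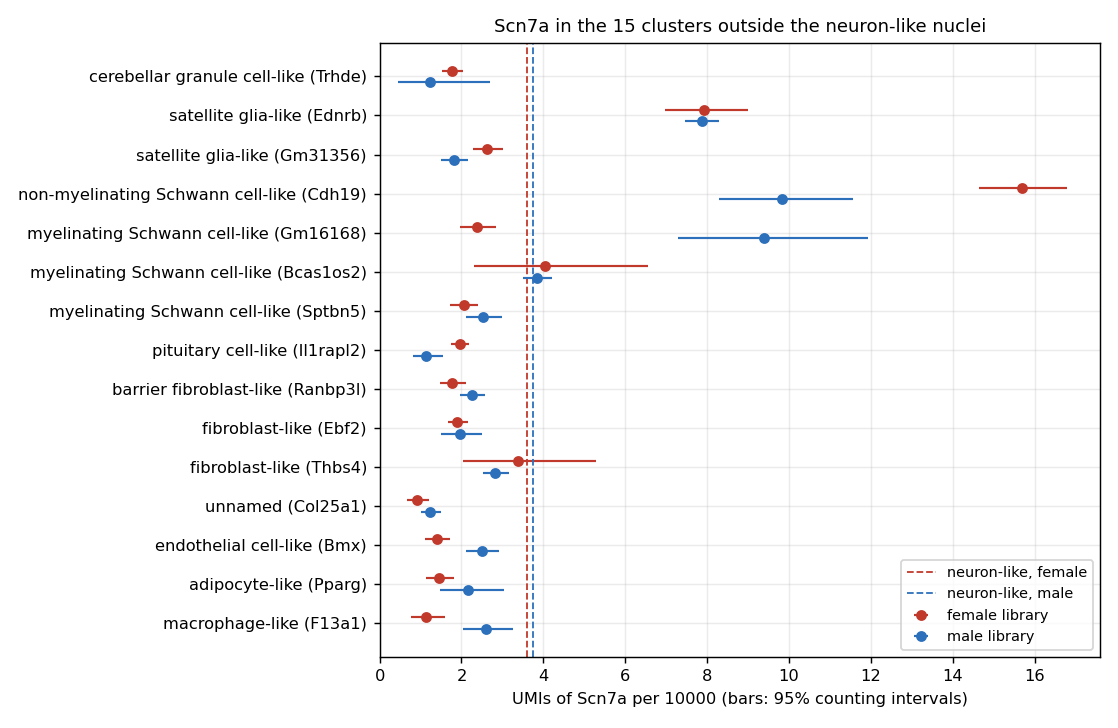
Points give Scn7a in UMIs per 10000 (x axis, linear from 0) in the 15 clusters outside the neuron-like nuclei (y axis), with 95% counting intervals, for the female (red) and the male (blue) library, and dashed lines give the neuron-like level of each library. The non-myelinating Schwann cell-like cluster stands at 15.7 and 9.82, above the neuron-like level in both libraries.

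Of the members, non-myelinating Schwann cell-like nuclei held only Scn7a at least 2-fold higher than myelinating ones, at a log2 ratio of 2.23 (2.10 to 2.36), where 6.64% of 12397 genes were that much higher, and 0 at least 2-fold lower, where 8.72% were. The ratio was 2.80 (2.61 to 3.0) for the female library and 1.42 (1.15 to 1.69) for the male one. For the other 7 members the interval held 0 over both libraries, though not for Scn9a in the female library alone (0.49, 0.05 to 0.92) or Scn11a in the male library alone (-1.49, -3.39 to -0.10). Scn7a was also present in neurons, at 7.14 in the Tafa1 cluster (6.55 female, 7.52 male) and 6.19 in the Cdh9 cluster, both above every nodose-like cluster, and its lowest level of all clusters was 0.672 in the sympathetic neuron-like cluster.

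All glia-like nuclei together (2625) held Scn7a at 5.34 UMIs per 10000 (5.42 female, 5.29 male) against 3.69 in neuron-like nuclei (3.59 female, 3.74 male), a 1.45-fold ratio. The other 7 members were all at least 2-fold lower in glia, where 18.2% of 18248 genes were, with log2 ratios from -1.48 (Scn11a) to -2.17 (Scn2a). None was 2-fold higher, where 15.5% were, but with the macrophage-like level subtracted the log2 ratio of Scn7a went from 0.53 to 1.11, past 2-fold. The macrophage-like level of each library (1.13 female, 2.59 male) was taken from the nuclei of that library in both classes. Since the sympathetic neuron-like cluster lay under the macrophage-like level (0.672 against 1.88 over both libraries), this may take too much from neurons and raise the ratio. For all 7 the glia-like interval overlapped that of the macrophage-like nuclei, as for Scn9a with 1.79 (1.69 to 1.89) against 1.61 (1.30 to 1.98) and Scn10a with 1.23 (1.15 to 1.31) against 1.21 (0.937 to 1.53). Against satellite glia alone, neuron-like nuclei held 7 of 8 members at least 2-fold higher, where 17.9% of 17914 genes were, and 0 lower, where 13.8% were. The ratio of the sum was 1.97-fold and differed between libraries, with a log2 ratio of 1.47 (1.37 to 1.56) for the female library and 0.79 (0.74 to 0.84) for the male one. Its log2 ratio over both libraries, 0.98, became 1.94 with the macrophage-like level subtracted and 1.87 with clusters made at the lower resolution. The neuron markers were at 62.6 per 10000 in satellite glia-like nuclei, and their part in this ratio was not tested.

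The cerebellar granule cell-like and pituitary cell-like clusters carried another set. Cerebellar granule cell-like nuclei (395, of them 372 female) held Scn2a at 5.99 UMIs per 10000 (5.55 to 6.46), the highest of the 25 clusters, with Scn8a at 3.14 and Scn1a at 1.79. Against neuron-like nuclei 1 member was at least 2-fold higher, Scn2a at a log2 ratio of 1.94 (1.82 to 2.06), where 13.5% of 17659 genes were, and 5 were at least 2-fold lower, where 22.6% were. The 5 were Scn9a (-2.82), Scn10a (-2.59), Scn3a (-2.39), Scn11a (-2.22) and Scn7a (-1.08). The pituitary cell-like cluster held Scn2a at 2.36, Scn8a at 1.86, Scn1a at 0.987 and Scn3a at 0.831, all above background. Its name rests on a short list of hormone genes. It was led by Il1rapl2 and Adarb2, and Prl of that list also led an unnamed neuron-like cluster, so its identity is uncertain.

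Single nuclei often carried several members. After thinning to 1000 UMIs, a neuron-like nucleus held a mean of 1.58 different members and 20.1% held at least 3. The mean was 2.19 in the Cdh9 cluster, where 39.8% held at least 3, then 2.02 in the Tafa1 and 1.94 in the Grik1 cluster. It was 0.596 in macrophage-like nuclei, where 2.94% held at least 3.

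The genes that bind, anchor and turn over the channels were followed as a list of 25 partners, with accessory beta subunits, fibroblast growth factor homologous factors, which bind the channels' intracellular tail, genes of the axon initial segment and node, trafficking genes and the related leak channel complex of Nalcn. Of the 24 that could be compared, 11 were at least 2-fold higher in neuron-like than in satellite glia-like nuclei and 1 lower, where 17.9% and 13.8% of all genes were. The largest were Fgf14 (18.8 against 2.22 UMIs per 10000), Fam155a, a subunit of the leak channel (13.7 against 1.85), Fgf12 (16.7 against 2.81) and Unc79, another subunit of it (2.90 against 0.498). The lower was Fgf11 at a log2 ratio of -1.17. All glia together held 12 of 24 at least 2-fold lower than neuron-like nuclei and 1, Fgf11, higher, where 18.2% and 15.5% of all genes were.

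In jugular-like against nodose-like nuclei 4 of 24 partners were at least 2-fold higher and 6 lower, where 7.6% and 10.1% of all genes were. Tmem233, which encodes a membrane protein that partners Scn9a, was at 3.65 against 0.457 (log2 ratio 3.0). The beta subunit gene Scn4b was at 0.373 against 0.0619, Nedd4l, a ubiquitin ligase that removes channels from the membrane, at 12.1 against 4.53, and Ank3, the anchor of the axon initial segment, at 21.8 against 9.44. Fgf14 showed the widest gap, with 1.48 in jugular-like and 23.0 in nodose-like nuclei (log2 ratio -3.96). Fam155a (-2.19) and Nrcam, an adhesion protein of the node (-1.78), were among the others.

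Partners were compared in the same way for single clusters. In the Grik1 cluster Tmem233 was at 7.64 against 1.18 in the other jugular-like nuclei and Ank3 at 31.9 against 15.5, 2 of 23 partners at least 2-fold higher (5.03% of all genes), while 10 were lower (14% of all genes), among them Fam155a, Fgf14 and Scn4b. Against nodose-like nuclei the Tafa1 cluster held 6 of 24 at least 2-fold higher and 4 lower, where 7.92% and 11.6% of all genes were. Scn4b had a log2 ratio of 3.20 (2.78 to 3.64), Cntn1 and Cntnap1, which encode a pair of proteins of the junction beside the node, were at 7.95 against 1.52 and 0.522 against 0.133, and Fgf12 was at 41.4 against 16.1. Among the lower were Fgf14, Fgf13 and Scn3b. In the sympathetic neuron-like cluster Fgf14 reached 97.7 and Nrcam 4.92, 2 of 24 at least 2-fold higher (6.99% of all genes), and 5 were lower (13.8% of all genes), among them Fgf13 (0.892 against 9.28), Fgf12 and Nedd4l. Granule cell-like nuclei also held Fgf14 at 95.2, one of 3 partners at least 2-fold higher than in neuron-like nuclei with Unc80 and Cntnap1 (13.5% of all genes), and 6 were lower (22.6% of all genes), among them Tmem233, Fgf13 and Scn4b. In non-myelinating against myelinating Schwann cell-like nuclei Nedd4l, Fgf11 and Ank3 were at least 2-fold higher of 23 compared (6.64% of all genes), though the interval of Fgf11 (-0.32 to 2.39) holds 0, and Nfasc and Nrcam, 2 adhesion proteins of the node, were lower (8.72% of all genes).

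Between the libraries, no member differed 2-fold in neuron-like nuclei, where 2.61% of 17504 genes were that much higher in the male and 1.37% in the female library. The sum was 24.2 for the female library and 21.9 for the male one, a log2 ratio of male over female of -0.15 (-0.17 to -0.12). Scn10a was at 6.32 for the female library and 4.76 for the male one (-0.41, -0.46 to -0.36), Scn11a at 2.03 and 1.73 (-0.23) and Scn9a at 7.16 and 6.43 (-0.15). Scn3a was the other way, at 0.755 and 0.979 (0.37, 0.24 to 0.51). The make-up of the neurons differed too, with 5 female and 122 male sympathetic neuron-like nuclei. Within nodose-like nuclei Scn3a was at 1.18 and 1.12 (-0.08, -0.26 to 0.11), and within jugular-like nuclei at 0.379 and 0.375. Scn10a was lower in the male library within both classes (-0.24 and -0.24), and its level was higher in the female library in 8 of the 10 neuron-like clusters, in 7 of them with intervals that did not overlap. These clusters all come from the same female and male library, so they are not replicates, and the intervals hold counting error alone. Within nodose-like nuclei Scn7a was higher in the male library (3.29 against 2.39, 0.46, 0.34 to 0.58). The macrophage-like level of Scn7a was also higher in that library, 2.59 against 1.13, and its part in the nodose-like value was not tested. No member passed 2-fold in nodose-like (2.7% of 14842 genes higher in the male library, 1.46% lower) or jugular-like nuclei (3.14% of 13516 higher, 2.18% lower).

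In satellite glia-like and myelinating Schwann cell-like nuclei most members had a higher level in the male library, Scn2a a lower one. Scn8a was also slightly lower in myelinating Schwann cell-like nuclei (-0.07, -0.64 to 0.50). Scn2a was at 0.259 in the male against 0.396 in the female library in satellite glia-like nuclei (-0.61, -1.19 to -0.02), and in myelinating Schwann cell-like nuclei the ratio was -0.50 (-1.03 to 0.04). In non-myelinating Schwann cell-like nuclei the sum was the other way, 19.5 for the female library and 13.6 for the male one. Satellite glia-like nuclei held 2 of 8 at least 2-fold higher in it, where 5.41% of 12410 genes were, Scn1a at 0.515 against 0.239 (log2 ratio 1.11, 0.49 to 1.77) and Scn3a at 0.405 against 0.156 (1.37, 0.62 to 2.21). Myelinating Schwann cell-like nuclei held 1 higher, Scn3a at 0.272 against 0.0955 (1.51, 0.58 to 2.56), where 4.33% of 11755 genes were. None was 2-fold lower, where 2.85% and 1.82% were. The median log2 ratio over the members was 0.54 in satellite glia and 0.74 in myelinating Schwann cells, against 0.02 and 0.02 over all genes. Macrophage-like nuclei moved the same way, with a sum of 4.41 for the female library and 8.95 for the male one, Scn9a at 0.839 and 2.35 among it, and the part of free RNA in the glial values was not tested. Each class also drew on other clusters in each library, satellite glia on the Ednrb cluster with 60 female and 578 male nuclei. Within the satellite clusters the sums lay close, at 14.9 (13.6 to 16.3) female and 15.2 (14.6 to 15.8) male in the Ednrb cluster and at 6.37 (5.82 to 6.95) and 5.92 (5.36 to 6.53) in the Gm31356 cluster. Among the partners 4 of 24 were at least 2-fold higher in the male library and 1 lower in satellite glia (5.41% and 2.85% of all genes), with S100a10, which carries Scn10a to the membrane, at 6.49 against 2.85, and 5 of 22 higher and 1 lower in myelinating Schwann cells (4.33% and 1.82%). In neuron-like nuclei 0 of 24 partners passed 2-fold in either direction (2.61% and 1.37%), in nodose-like nuclei 2 of 24 were higher (2.7%), and in jugular-like nuclei 1 of 23 was lower (2.18%).

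**Figure D5:**
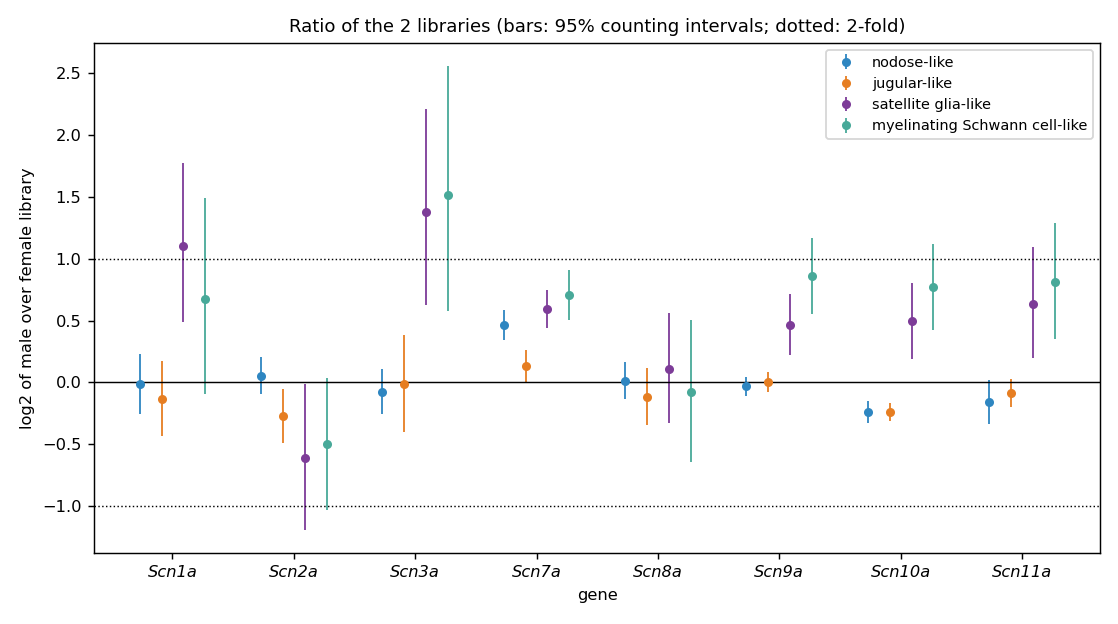
The y axis gives the log2 ratio of the male over the female library for each member (x axis) in nodose-like, jugular-like, satellite glia-like and myelinating Schwann cell-like nuclei, with 95% counting intervals and dotted lines at 2-fold. Nodose-like and jugular-like points lie between -0.27 and 0.46, while Scn3a reaches 1.37 in satellite glia-like and 1.51 in myelinating Schwann cell-like nuclei.

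Across 18 points, each a neuron-like cluster of at least 30 nuclei in 1 library, Scn10a and Scn11a had the most alike pattern of all member pairs, with a Pearson correlation of 0.91 of their log2 levels. Scn3a was the most unlike them, at -0.84 with Scn10a and -0.82 with Scn11a. The gene most like Scn10a was Hs6st2 (0.94) and the 3 most like Scn11a were Hs6st2 (0.89), Tspan5 (0.88) and Runx1 (0.88), a transcription factor and one of the jugular markers. Atp2b2, a calcium pump, was most like Scn1a (0.93), Celf3 most like Scn3a (0.93), Csgalnact1 most like Scn7a (0.91), Mir124a-1hg most like Scn9a (0.92), Platr25 most like Scn8a (0.87) and Fstl4 most like Scn2a (0.85). Over 44 points of all clusters, Scn9a was most like Prune2 (0.97), Elavl4 (0.97), a marker of neurons, and Ppp1r1c (0.97). Scn7a was most like Kcna6 (0.76) and Kcna2 (0.75), genes of potassium channels. These values are descriptions, since the points share 2 libraries, their depth and their free RNA, and the genes were the highest of 7715 and 10474.

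The promoters of the members were read from RefSeq (GRCm38.p6) as the 250 bases before each start, which 7 of the 8 had. The letters TGTGGT or their reverse ACCACA, the core that Runt factors such as Runx1 bind, occurred in 14.1% of all 32851 promoters and in 0 of those of Scn10a and Scn11a. Among the members they were found in 1 of the 2 promoters of Scn2a, 231 bases before the start. TAATTA, a core of homeodomain factors, occurred in 4.84% of all promoters and in none of those of the 7 members. Scn3a had no promoter to read.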

How the data were processed

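Whole-ganglion nuclei of 1 female and 1 male pool were sequenced. The deposited counts are UMIs of each gene in each nucleus, made by the authors with Cell Ranger 7.1.0 on mm10 with introns included, filtered by a debris score, genes and UMIs per nucleus, and joined with cellranger aggr, which evens out read depth between libraries. Nuclei carry no sex label. Each barcode ends in the number of its library, and the 3791 and 4923 nuclei equal the numbers the study states for females and males. Xist had 13424 UMIs for the female library and 7 for the male one and Ddx3y 12 and 1789. The authors named their filters as the removal of doublets, and no doublet caller was run here. The count matrix held 0 columns of other samples. Depth ran from 980 to 124136 UMIs per nucleus for the female library and from 1004 to 121725 for the male one.

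Nuclei were scaled to the median depth, log transformed and clustered on 10 principal components with Louvain at a resolution of 3.8 (20 clusters), and the neuron-like nuclei again at 0.8 (10 clusters), with the members, 25 partner genes and the sex-linked genes left out (Python 3.11.15, NumPy 2.4.6, scikit-learn 1.9.0, python-igraph 0.11.9). A cluster took the name of the marker list with the highest mean log2 fold if 3 or more of the markers (10 UMIs or more each) stood at least 1.5-fold above the mean of the other clusters, unless another list led its top 10 genes. A cluster also stayed unnamed if more than a single other list had a mean log2 fold above 0.8. The same held for a cluster of shallow nuclei with none of its list's markers among its top 10 genes. The neuron resolution and the naming limits were set after clusters had been seen. Clusters rebuilt here differ from those of the study, and values may differ from it for that reason.

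UMIs were summed over the nuclei of a class and given per 10000 UMIs. Ratios carry exact conditional intervals, and genes with at least 20 UMIs over both sides were compared. A gene is called past 2-fold in either direction, with no p-value. Gene spans come from a GENCODE annotation and promoters from RefSeq. The sources used here do not say how reads on overlapping genes were divided. Scripts were tested on simulated counts. Named were all 8 members, partners past 2-fold with at most 4 per direction (1 partner is counted but not reported here by name), and for each member up to 3 genes of most like pattern (Pearson correlation of log2 levels with 0.05 added, genes of at least 500 UMIs, clusters of at least 30 nuclei in a library). The members and lists were chosen with earlier results of these data known. Alternatives were the mean over nuclei, nuclei of over 2000 UMIs alone, a lower resolution, scaling within libraries, the macrophage-like level subtracted, and each library alone.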

Additional observations from a re-analysis of the deposited data

How the results depend on the processing

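The summed level of neuron-like over satellite glia-like nuclei (log2 ratio 0.98) became 0.93 as a mean over nuclei, 1.03 in nuclei of over 2000 UMIs, 1.06 with scaling within libraries, 1.94 with the macrophage-like level subtracted, 1.47 for the female library and 0.79 for the male one alone. With clusters made at the lower resolution it was 1.87, and the satellite class then held other nuclei. The share of Scn10a and Scn11a in jugular-like over nodose-like nuclei (0.77) became 0.70 as a mean over nuclei, 0.99 with the background subtracted and 0.68 in the female library. Scn7a in glia-like over neuron-like nuclei (0.53) became 0.45 in nuclei of over 2000 UMIs, 1.11 with the background subtracted and 0.59 in the female library. The level subtracted was that of each library for all classes, which may be too much for deep neuron-like nuclei. The sum in male over female neuron-like nuclei (-0.15) became -0.10 as a mean over nuclei, -0.12 with scaling within libraries and -0.61 with the background subtracted. No value changed sign, and the other alternatives of these results moved by less than the counting interval. The class with the highest level of each member was the same by the sums, by the mean over nuclei and in nuclei of over 2000 UMIs. Of 136 levels of members in classes, 6 left their interval in nuclei of over 2000 UMIs and 40 as a mean over nuclei, by up to 1.51-fold up or to 0.609 of the level. The share of nuclei with a UMI depends on depth: thinned to 1000 UMIs, 133 of 136 shares were over 1.5 times lower. No paired analysis was possible because each sex has 1 library, and leaving out a replicate was not possible either. Values of the 5 female sympathetic neuron-like nuclei rest on few nuclei and have wide counting intervals.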
